A study of Mus musculus with 10 samples.

Results

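Nitric oxide (NO) and cGMP signaling genes were followed in brain endothelial cells (BECs). The members were chosen by name, with the APP/PS1 minus control differences of these same libraries known, so their differences are given as a description with no test. Of the 10 listed members, 9 were among the 14106 genes measured: Nos3, Gucy1a1, Gucy1b1, Prkg1, Pde5a, Pde2a, Pde3a, Pde1b and Irag1. Irag1 carries its older symbol Mrvi1 in the annotation used. Prkg2, which encodes the second cGMP-dependent protein kinase, was not among the genes analysed here.

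The 10 libraries hold bulk RNA of BECs from the cortex of female mice at 1 year of age, with 5 libraries of APP/PS1 mice and 5 of control mice of matched age. Amyloid-beta builds up in the brain of APP/PS1 mice, which are transgenic and serve to model Alzheimer's disease. The controls are labelled WT, and both groups had the C3H/BL6 background. The cells were taken as CD31+ and CD45- with microbeads after dissociation of the cortex and removal of myelin, and whether a library held 1 mouse or a pool is not given in the sources used here. The promoter that drives the transgenes is also not given there.

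NO is made from arginine by NO synthases, of which the endothelial form is encoded by Nos3, and it diffuses from the endothelium into the smooth muscle cells and pericytes of the vessel wall. There it binds soluble guanylate cyclase, a dimer of an alpha and a beta subunit, which makes cGMP. The cGMP activates protein kinase G, whose targets relax the vessel, and phosphodiesterases split cGMP and so end the signal.

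Each value below is log2 CPM, the log2 of a count scaled to library size, as deposited after the authors' batch correction. Libraries with the same replicate number were treated as a pair. In the deposited values the mean of each pair was nearly equal, so a library that is high in one group has a low partner in the other, and the libraries of a pair are not independent. The labels give 4 batches and put replicates 4 and 5 of both groups in batch 4, so they do not by themselves give 5 equal pairs, and the cause of this pattern was not tested. The values of each library correspond to whole adjusted counts that total between 22371766 and 126686149, lowest in replicate 1 of both groups. In the paired limma fit, 0 of 14106 genes passed an adjusted p of 0.05 (0% called). The lowest adjusted p of any gene was 0.195. With p under 0.05 before adjustment stood 833 lower genes (5.91%) and 300 higher genes (2.13%). Endothelial markers stood at a mean of 10.5 log2 CPM in both groups, with all 14 listed markers found, so the label of the cells fits its defining genes.

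The members split by level and by difference. Nos3 was by far the most abundant member and was nearly equal in the 2 groups. The receptor subunits Gucy1a1 and Gucy1b1, the kinase substrate Irag1 and the phosphodiesterases Pde3a and Pde1b had lower means in APP/PS1 libraries, with differences of -0.49 to -0.78 log2. The difference was within the SD of the pairs for Gucy1b1, and also for Prkg1, Pde5a and Pde2a, whose differences were smaller. In all, 7 of 9 members had a lower mean, with a median difference of -0.49 log2, against 51.8% of all genes with a lower mean and a median over all genes of -0.00. Of the members, 2 were lower in all 5 pairs, where 5% of all genes were, and 0 were higher in all pairs, where 2.99% of all genes were. Likewise, 2 members had groups that did not overlap and lay lower in APP/PS1 (4.96% of all genes), and 0 had groups that did not overlap and lay higher (2.91%). Since the members were chosen with this contrast known, nothing is read from these shares. Fewer cells of a type and less RNA per cell cannot be told apart in bulk RNA.

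**Figure D1:**
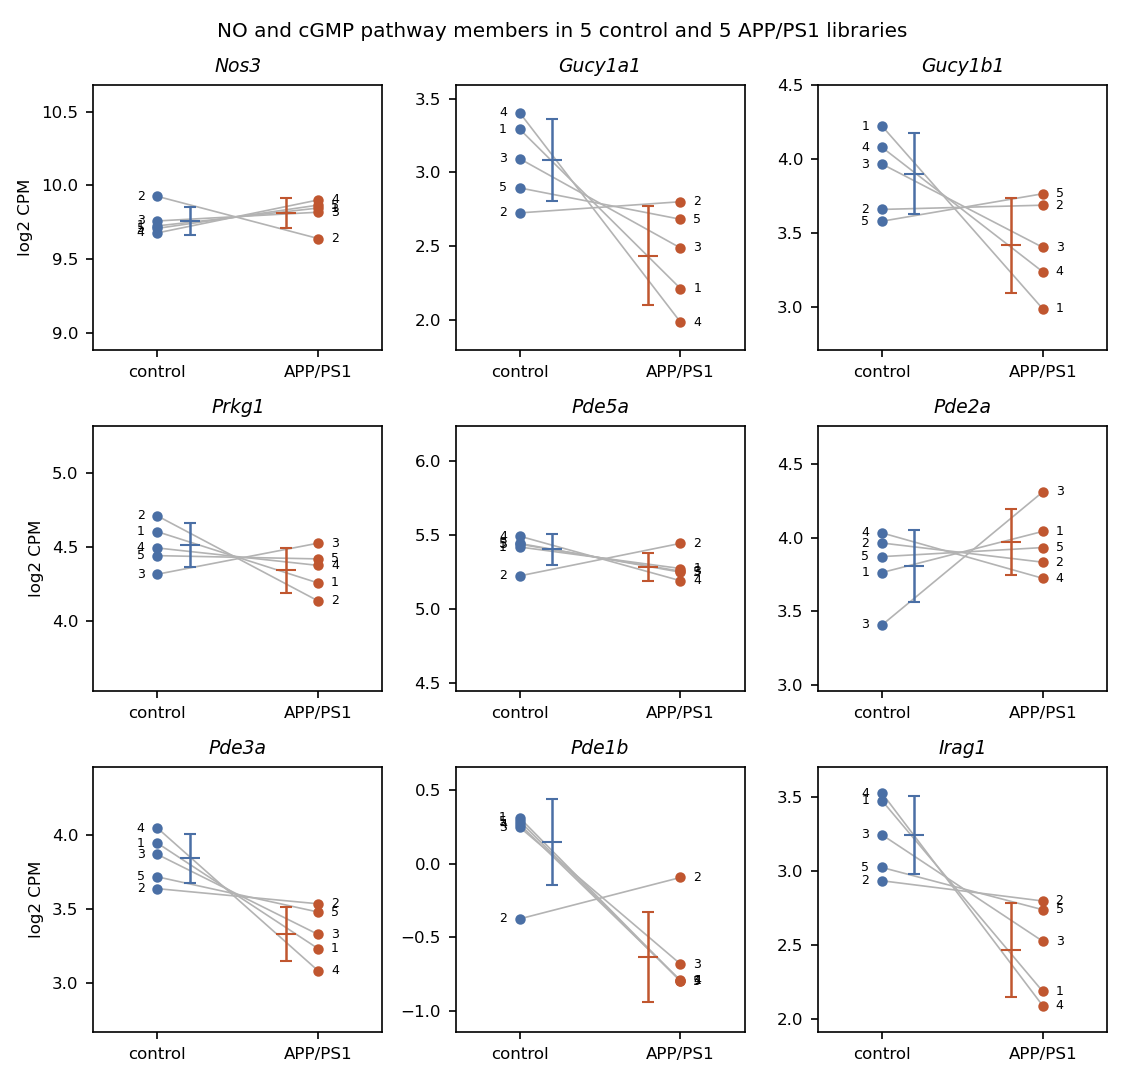
Level of each member (y axis, log2 CPM, each panel spanning 1.8 log2 units) in the 5 control libraries (blue) and the 5 APP/PS1 libraries (orange). Numbers give the replicate, grey lines join the libraries of a pair, and bars give the mean and SD of each group. The groups of Irag1 and Pde3a do not overlap, and those of Nos3 lie together near 9.8.

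Nos3, which encodes endothelial NO synthase (chr5:24364810-24384474, plus strand, GRCm38), lies at the head of the pathway. Its control libraries 1 to 5 stood at 9.73, 9.93, 9.76, 9.68 and 9.71 log2 CPM. The APP/PS1 libraries stood at 9.85, 9.64, 9.82, 9.90 and 9.87. The groups overlapped, and replicate 2 held the highest control value and the lowest APP/PS1 value. The mean difference was 0.06 ± 0.20 log2 (SD of 5 pair differences), higher in 4 pairs and lower in 1. Set against the mean of the endothelial markers in the same library, it was 0.02 ± 0.19. Exons of 2 genes on the opposite strand overlap those of Nos3: Atg9b over 7.12% of its exon bases and the antisense gene Gm15587 over 25.2%. Whether the counting used strand is not given in the sources used here, so reads of these genes and Nos3 cannot be told apart where they overlap.

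Gucy1a1 and Gucy1b1 encode the alpha1 and beta1 subunits that together form the main NO receptor. They are neighbors on the minus strand of chromosome 3, 17737 bases apart with 0 annotated genes between them, Gucy1b1 at chr3:82032006-82074689 and Gucy1a1 at chr3:82092427-82145789. In control libraries 1 to 5, Gucy1a1 stood at 3.29, 2.73, 3.09, 3.40 and 2.90 log2 CPM. In APP/PS1 libraries it stood at 2.21, 2.80, 2.49, 1.99 and 2.68. Control replicates 4 and 1 were highest and their APP/PS1 partners lowest, and only replicate 2 brought the groups into overlap. The mean difference of Gucy1a1 was -0.65 ± 0.61 log2, lower in 4 of 5 pairs, which places the APP/PS1 level at 63.9% of control.

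Gucy1b1 stood at 4.22, 3.66, 3.97, 4.08 and 3.58 log2 CPM in control libraries and at 2.99, 3.69, 3.40, 3.24 and 3.77 in APP/PS1 libraries. It was lower in 3 pairs, with a mean difference of -0.49 ± 0.59 log2, and the groups overlapped through replicates 2 and 5. Per kilobase of exon, Gucy1b1 exceeded Gucy1a1 by 1.65 ± 0.13 log2 units in control and by 1.81 ± 0.19 in APP/PS1 (SD over 5 libraries of each group). The change of this ratio was 0.16 ± 0.31, within its spread over the pairs. The beta1 subunit lay above alpha1 in each of the 10 libraries, at 3.32 times its level per kilobase from the mean over libraries.

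Irag1 encodes a protein of the endoplasmic reticulum that protein kinase G phosphorylates and that holds back calcium release through the inositol trisphosphate receptor. The gene lies at chr7:110868266-110982461 on the minus strand. Control libraries 1 to 5 stood at 3.48, 2.93, 3.25, 3.53 and 3.02 log2 CPM, and APP/PS1 libraries at 2.19, 2.80, 2.53, 2.09 and 2.74. The groups did not overlap, although the lowest control value, in replicate 2, lay close to the highest APP/PS1 value, in the same replicate. The mean difference was -0.77 ± 0.58 log2, lower in 5 of 5 pairs and ranging from -1.44 in pair 4 to -0.14 in pair 2, which gives 58.5% of the control level. Its exons share 1.58% of their bases with the antisense gene Gm16336.

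The 250 bases before the RefSeq start sites of Gucy1a1, Gucy1b1 and Irag1 are shown because these members differed together across the pairs. The sequences are those of RefSeq on GRCm38.p6, read 5′ to 3′ on the strand of the gene, and capitals mark each E-box (CANNTG). Among the members, 7 had a window in that table. The windows lie at chr3:82145651-82145900 for Gucy1a1, chr3:82074712-82074961 for Gucy1b1 and chr7:110982462-110982711 for Irag1. GENCODE places the start of Gucy1a1 farther upstream, so the last 139 bases of its window, with its E-box, lie inside the gene. They are not shown, which leaves the 111 bases of chr3:82145790-82145900. The bases just after the RefSeq start of Gucy1a1 were not found in its GENCODE transcripts, unlike those of Gucy1b1 and Irag1.
Gucy1a1: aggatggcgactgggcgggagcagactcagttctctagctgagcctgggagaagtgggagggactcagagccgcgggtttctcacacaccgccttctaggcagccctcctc
Gucy1b1: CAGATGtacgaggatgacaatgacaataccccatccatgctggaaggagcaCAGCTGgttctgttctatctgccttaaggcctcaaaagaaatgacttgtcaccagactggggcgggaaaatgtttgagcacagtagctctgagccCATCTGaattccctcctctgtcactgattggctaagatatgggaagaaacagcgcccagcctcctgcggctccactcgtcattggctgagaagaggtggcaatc
Irag1: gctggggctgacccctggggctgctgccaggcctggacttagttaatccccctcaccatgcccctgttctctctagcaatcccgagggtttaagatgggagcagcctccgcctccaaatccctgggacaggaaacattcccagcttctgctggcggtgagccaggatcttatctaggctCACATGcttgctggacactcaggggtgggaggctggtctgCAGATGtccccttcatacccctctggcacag

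The window of Gucy1a1 held 1 E-box, that of Gucy1b1 held 3 and that of Irag1 held 2. Over all 32851 windows of this length, 66.2% held at least 1 E-box when both strands were searched. The GC box GGGCGG was found once each before Gucy1a1 and Gucy1b1 and not before Irag1, against 32.7% of all windows. The RBPJ core TGGGAA was found once each before Gucy1b1 and Irag1, against 21.6%. The CArG box, the serum response factor motif known from smooth muscle genes, was in 0 of these 3 windows and in 1.47% of all windows. These are matches of letters in one window and describe no binding.

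Prkg1 encodes cGMP-dependent protein kinase I, which carries the signal from cGMP to its targets, and lies at chr19:30564489-31765033 on the minus strand. In control libraries 1 to 5 it stood at 4.60, 4.71, 4.32, 4.50 and 4.44 log2 CPM, and in APP/PS1 libraries at 4.26, 4.14, 4.53, 4.38 and 4.42. The groups overlapped through pair 3, which went the other way, and pair 5 hardly differed. The mean difference was -0.17 ± 0.30 log2, lower in 4 of 5 pairs. Without replicate 2, whose pair had the lowest difference at -0.58, it was -0.07.

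Pde3a encodes a phosphodiesterase that splits cAMP and is inhibited by cGMP, which links the 2 messengers. The gene lies at chr6:141249269-141507448 on the plus strand. Its control libraries 1 to 5 stood at 3.94, 3.64, 3.87, 4.05 and 3.72 log2 CPM, and its APP/PS1 libraries at 3.23, 3.53, 3.33, 3.08 and 3.48. The groups did not overlap, with the libraries of replicate 2 nearest to each other. The mean difference was -0.51 ± 0.35 log2, lower in 5 of 5 pairs, or 70.1% of the control level. An antisense gene, Gm28523, overlaps 5.82% of its exon bases.

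Pde1b encodes a phosphodiesterase that calcium and calmodulin switch on and that splits both cyclic nucleotides. At chr15:103503034-103530052 on the plus strand, it was the scarcest member, with 12 adjusted counts in its lowest library. Control libraries 1 to 5 stood at 0.31, -0.37, 0.25, 0.26 and 0.29 log2 CPM, and APP/PS1 libraries at -0.79, -0.09, -0.68, -0.79 and -0.79. Within replicates 1, 3, 4 and 5 the groups were far apart, whereas pair 2 went the other way and made the groups overlap. The mean difference was -0.78 ± 0.60 log2, and without replicate 2 it was -1.04.

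Pde5a, the cGMP-specific phosphodiesterase at chr3:122728947-122859374, stood at 5.42, 5.22, 5.44, 5.49 and 5.44 log2 CPM in control libraries and at 5.27, 5.44, 5.25, 5.19 and 5.25 in APP/PS1 libraries. Pair 2 again went against the other 4 pairs, and the groups overlapped through it. The mean difference of Pde5a was -0.12 ± 0.20 log2, or 92% of the control level.

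Pde2a encodes a phosphodiesterase that cGMP activates and that splits both cyclic nucleotides, and lies at chr7:101421691-101512827 on the plus strand. Its values were 3.76, 3.96, 3.41, 4.03 and 3.87 log2 CPM in control libraries and 4.04, 3.83, 4.31, 3.72 and 3.93 in APP/PS1 libraries. The groups overlapped, with 3 pairs higher and 2 lower, and the mean difference of 0.16 ± 0.47 log2 became -0.02 without replicate 3. Of the exon bases of Pde2a, 64.3% are shared with the gene model Gm45837 on the same strand, which was not among the genes analysed here. How reads in both models were counted is not given in the sources used here, so the level of Pde2a is uncertain.

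Levels of different genes were set side by side per kilobase of exon. Nos3 stood at 7.74 ± 0.10 log2 CPM per kb (SD, n = 10 libraries), above 99.1% of all genes on that scale. Next came Pde5a at 2.04 ± 0.11, Gucy1b1 at 1.69 ± 0.38, Pde2a at 1.27 ± 0.24 and Prkg1 at 0.99 ± 0.17. Irag1 at 0.08 ± 0.49, Gucy1a1 at -0.04 ± 0.45 and Pde3a at -0.09 ± 0.32 lay below them, and Pde1b came last at -2.67 ± 0.50.

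Not every step of this order was larger than the spread. Nos3 lay above Pde5a, Prkg1 above Irag1, and Pde3a above Pde1b in all 10 libraries. Irag1 also lay above Gucy1a1 in all 10 libraries, by 0.13 log2 units on average. Pde5a lay above Gucy1b1 in 9 libraries, Gucy1b1 above Pde2a in 8, Pde2a above Prkg1 in 8 and Gucy1a1 above Pde3a in 7.

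**Figure D2:**
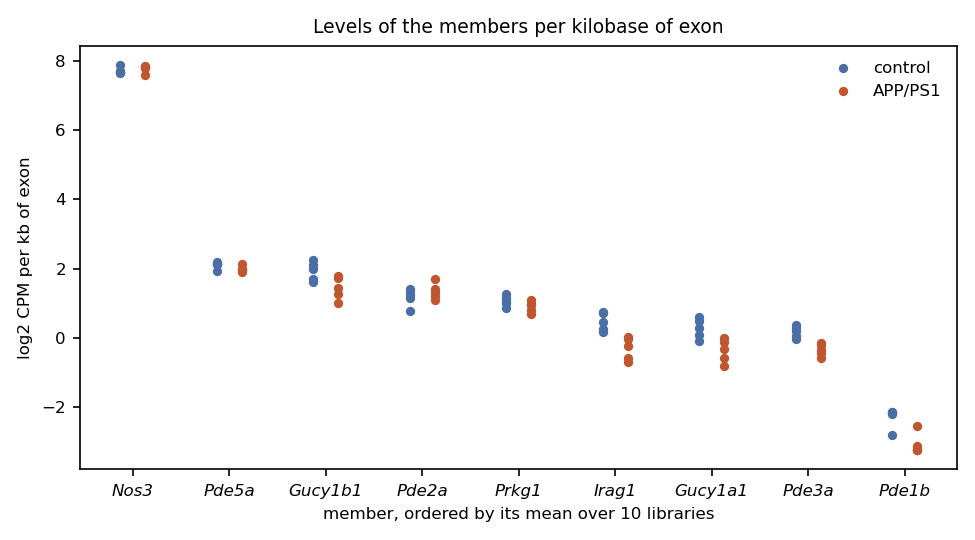
Level of each member per kilobase of exon (y axis, log2 CPM per kb) in 5 control (blue) and 5 APP/PS1 (orange) libraries, each point a library. Nos3 stands alone near 7.74 and Pde1b lowest near -2.67, while Irag1, Gucy1a1 and Pde3a lie close together.

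The other genes of the pathway were taken from a list of 62, of which 42 were measured. Of these, 27 had a lower and 15 a higher mean in APP/PS1 libraries, with a median difference of -0.06 log2. At an unadjusted p under 0.05 in the paired limma fit, 4 of 42 were lower and 0 higher, beside 5.91% and 2.13% of all genes, and 0 passed an adjusted p of 0.05. The 4 genes were Gucy1a2, Pde1a, Kcnma1 and Kcnmb1. Lower in all 5 pairs and with groups that did not overlap were Gucy1a2, Pde1a, Kcnma1 and Nos2, and 0 genes were higher in that way. Over all genes, 5% were lower in all pairs and 2.99% higher. Groups that did not overlap lay lower for 4.96% of all genes and higher for 2.91%. Kcnmb1 and Nos2 were named here after their values were seen.

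Gucy1a2 encodes the alpha2 subunit, the other partner of beta1. It stood at 0.95, 0.68, 0.62, 0.93 and 0.66 log2 CPM in control libraries 1 to 5 and at -0.16, 0.26, 0.31, -0.09 and 0.25 in APP/PS1 libraries. The groups did not overlap, and the difference was -0.65 ± 0.38 log2 (limma unadjusted p = 0.00459, adjusted p = 0.487). Per kilobase, Gucy1a1 exceeded Gucy1a2 by 2.25 log2 units in both groups, and the change of that ratio was 0.01 ± 0.36. So all 3 measured subunits of soluble guanylate cyclase had lower means, with differences of -0.49 to -0.65 log2.

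Among the other guanylate cyclases, Npr1 and Npr2, the natriuretic peptide receptors that make cGMP at the cell surface, were far more abundant. Per kilobase, Npr1 stood at 4.53 ± 0.11 and Npr2 at 4.19 ± 0.08 log2 CPM per kb (n = 10), against 1.69 for Gucy1b1. Their differences were -0.13 ± 0.19 and -0.07 ± 0.14 log2, and that of Npr3, the clearance receptor, was -0.09 ± 0.49. None of these 3 had an unadjusted p under 0.05.

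The other NO synthases were also measured. Nos1, the neuronal form, averaged 6.47 ± 0.19 log2 CPM over the controls and 6.72 ± 0.21 over the APP/PS1 libraries (SD), and was higher in 4 of 5 pairs (limma adjusted p = 0.782). Pair 2 was again the exception, as for Nos3. Nos2, the inducible form, differed by only -0.09 ± 0.07 log2 in the mean, with 5 of 5 pairs lower (limma adjusted p = 0.729). Per kilobase, Nos1 at 3.12 ± 0.23 and Nos2 at 2.93 ± 0.06 lay below Nos3. The antisense gene Gm26995 overlaps 2.4% of the exon bases of Nos1.

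Among the partners of the synthases, Nos1ap, an adaptor of neuronal NO synthase, had the largest difference at -0.26 ± 0.36 log2, lower in 4 of 5 pairs, and was named after its values were seen. Cav1, which holds endothelial NO synthase at caveolae, differed by 0.05 ± 0.15 log2, and Nostrin, which guides its traffic, by -0.02 ± 0.32. Nosip differed by 0.03 ± 0.10. Ddah1 and Ddah2, which break down methylated arginines that inhibit the synthases, differed by -0.06 ± 0.12 and 0.15 ± 0.36. Of the 6 partners, 3 had a lower and 3 a higher mean, and 0 had an unadjusted p under 0.05. For the supply of arginine and of the cofactor tetrahydrobiopterin, 5 of 9 measured genes had a lower mean and 4 a higher one, and Gch1, the first enzyme of cofactor synthesis, differed by 0.04 ± 0.17. All 3 genes for NO removal had a lower mean, and 0 had an unadjusted p under 0.05. Cygb, which encodes cytoglobin, had the largest difference at -0.71 ± 0.90, with as few as 11 adjusted counts. Adh5 and Cyb5r3 differed by -0.05 ± 0.09 and -0.06 ± 0.16, within the spread of the pairs. These 3 were named after their values were seen.

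Of the 7 other phosphodiesterase genes measured, 6 had a lower mean. These 6 include Pde6d and Pde6h, which were named after their values were seen. They differed by only -0.01 ± 0.17 and -0.05 ± 0.26 log2, within the spread of the pairs. Pde1a, a calcium and calmodulin dependent form related to Pde1b, stood at 0.74, 0.39, 0.51, 0.90 and 0.42 log2 CPM in control and at -0.49, -0.06, -0.18, -0.84 and -0.10 in APP/PS1 libraries. Its groups did not overlap, and the difference was -0.93 ± 0.54 log2 (limma unadjusted p = 0.00447, adjusted p = 0.483). The third form, Pde1c, differed by -0.17 ± 0.41, and Pde3b, the partner of Pde3a, by -0.37 ± 0.74. The cGMP-specific Pde9a differed by -0.36 ± 0.50 and Pde10a by 0.04 ± 0.32.

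Downstream of cGMP, 5 of 11 measured genes had a lower and 6 a higher mean. Kcnma1 encodes the pore of the large-conductance calcium-activated potassium channel, a target of protein kinase G. It stood at -0.31, -0.73, -0.29, -0.30 and -0.71 log2 CPM in control and at -1.34, -0.93, -1.45, -1.55 and -0.94 in APP/PS1 libraries, with as few as 8 adjusted counts. The difference was -0.77 ± 0.52 log2 (limma unadjusted p = 0.00799, adjusted p = 0.537). Its beta1 subunit Kcnmb1, best known from smooth muscle, differed by -0.64 ± 0.63 (unadjusted p = 0.0375, adjusted p = 0.594). The targets Vasp, Ppp1r12a and Itpr1 differed by 0.12 ± 0.26, 0.04 ± 0.11 and -0.00 ± 0.22 log2. Pln and Irag2 of the same list, named after their values were seen, differed by -0.59 ± 0.72 and -0.23 ± 0.90. Rgs2, which the kinase activates to quiet receptor signaling, differed by 0.24 ± 0.51.

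**Figure D3:**
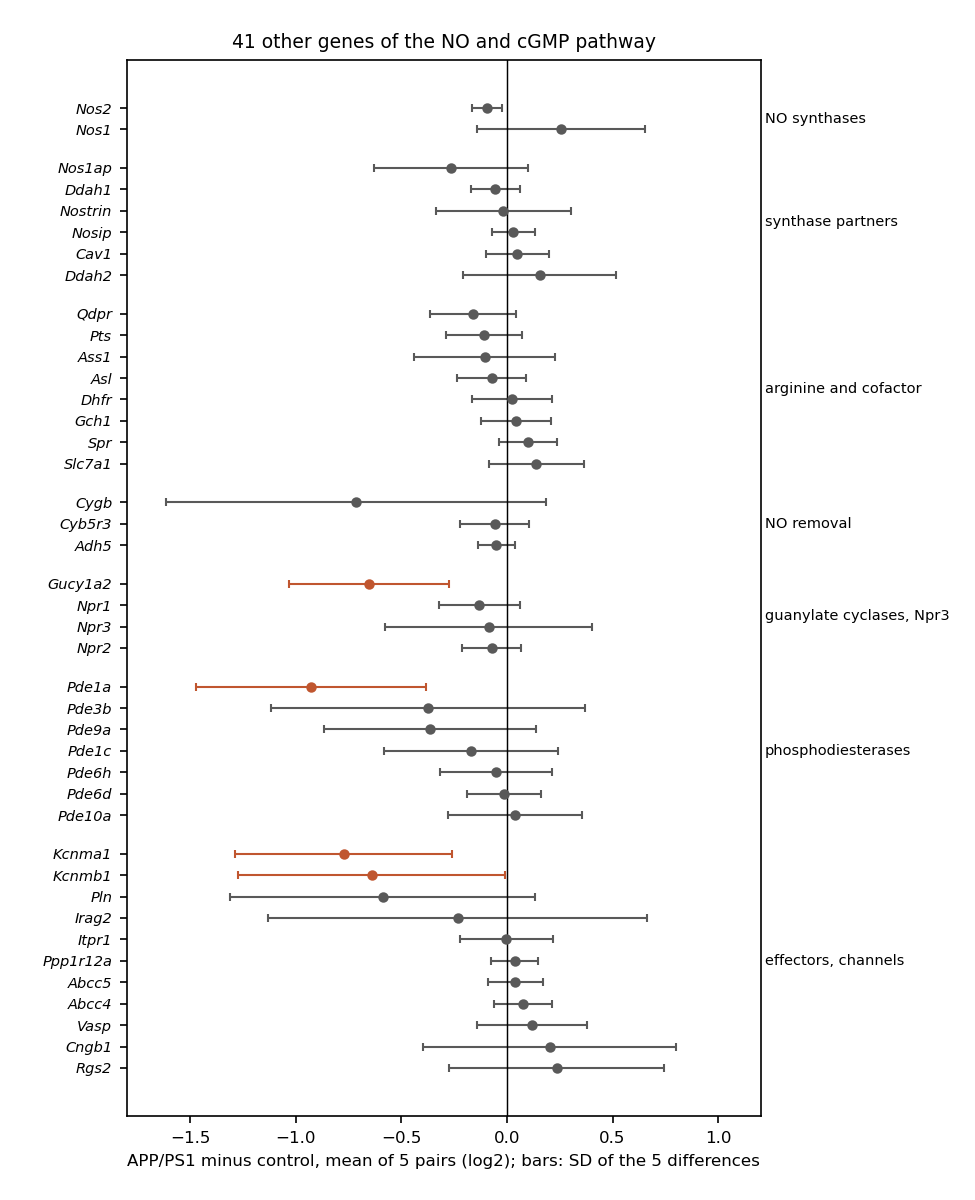
Mean of the 5 pair differences (x axis, APP/PS1 minus control, log2) for 41 of the 42 other measured pathway genes, grouped by role on the right, with bars for the SD of the 5 differences. Orange marks the 4 genes with an unadjusted limma p under 0.05, all lower. Arg1, which had 0 adjusted counts in a library, is not drawn.

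Markers of other vessel wall cells were lower in APP/PS1 libraries too, and the pairs with the largest differences were those of Irag1, Gucy1a1, Gucy1b1 and Pde3a, though not of Pde1b. All 12 pericyte markers found had a lower mean, with a mean difference of -0.77 ± 0.76 log2 (SD of 5 pair differences). So had all 9 smooth muscle markers found of 10 listed, at -0.70 ± 0.52. The summed pericyte level ranged from 9.12 to 9.93 log2 CPM in control and from 8.17 to 9.19 in APP/PS1 libraries, and the summed smooth muscle level from 8.32 to 8.60 and from 7.98 to 8.22. Such sums rest mostly on the most abundant marker, Rgs5 at 8.88 log2 CPM in control and Mylk at 7.66. Rgs5 differed by -0.76 log2, and Mylk, in the smooth muscle list, by -0.20. Pln is in this list and also among the pathway genes. Cnn1 was not among the genes analysed here, and 0 of the found markers of these lists was at the lowest value of a library. Endothelial markers differed by 0.03 log2.

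Pair by pair, the smooth muscle markers differed by -1.23, -0.11, -0.64, -1.23 and -0.28 log2. Irag1 differed by -1.29, -0.14, -0.72, -1.44 and -0.29 in the same pairs, and Gucy1a1 by -1.08, 0.08, -0.60, -1.42 and -0.21. Pairs 1 and 4 thus had the largest differences and pair 2 the smallest, in the markers and in both members. The pericyte markers differed by -1.71, -0.30, -0.55, -1.41 and 0.11. The other lists also had a lower mean, most with a wide spread over the pairs. Fibroblast and neuron markers differed by -0.54 ± 0.30 and -0.70 ± 0.50 log2 (SD of 5 pair differences) and were below 0 in every pair. Of 12 neuron markers listed, 5 were found, of which 4 had a lower mean. Snap25 differed by -1.97 ± 1.38 with as few as 4 adjusted counts, and Stmn2, the most abundant, by 0.02 ± 0.26. Astrocyte markers at -0.91 ± 1.10 and oligodendrocyte lineage markers at -1.45 ± 1.71 were above 0 in pair 2, at 0.49 and 1.41. Gja1, the most abundant of the 8 astrocyte markers and the only 1 with a higher mean, differed by 0.27 ± 0.34. Erythroid markers at -1.10 ± 2.60 were above 0 in pairs 4 and 5, and microglia markers at -0.16 ± 0.71 in pairs 1, 2 and 4. The part of these other lists in the members' differences was not tested.

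**Figure D4:**
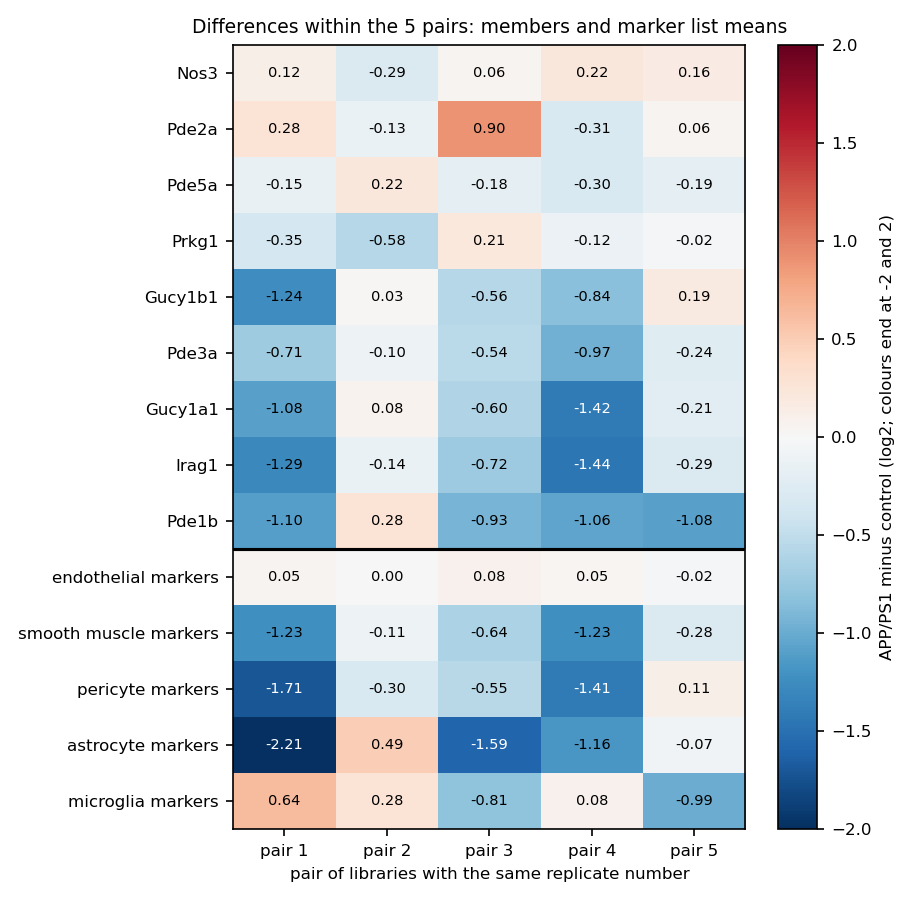
Difference within each pair of libraries (APP/PS1 minus control, log2, in colour and as a number) for the 9 members above the line and for the means of 5 marker lists below it. Irag1, Gucy1a1, Gucy1b1 and Pde3a are lowest in pairs 1 and 4, as the smooth muscle and pericyte markers are, and the endothelial markers stay near 0.

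The members were therefore also set against the mean of the smooth muscle, pericyte or endothelial markers in the same library, a step added after the values were seen. The other marker lists were not used in this way. Relative to the smooth muscle markers, the difference of Irag1 was -0.08 ± 0.08 log2, that of Gucy1a1 0.05 ± 0.14, that of Gucy1b1 0.21 ± 0.21, that of Pde3a 0.19 ± 0.21 and that of Pde1b -0.08 ± 0.47. Irag1 still lay lower in 5 of 5 pairs by this measure, with a lowest difference of -0.21 log2, whereas Pde3a and Pde5a lay higher in 5 of 5 pairs. Gucy1a2 at 0.04 ± 0.26 and Kcnma1 at -0.08 ± 0.27 were also near 0, and Pde1a had a difference of -0.23 ± 0.21.

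Subtracting a list mean shifts the mean difference of every member by the same amount. The lists themselves differed by -0.70 log2 for smooth muscle, -0.77 for pericyte and 0.03 for endothelial markers. The order of the members by mean difference is thus unchanged, and only the spread over the pairs is new. For the members with small differences as deposited, the values relative to smooth muscle markers were above 0 through that shift. Nos3 differed by 0.75 ± 0.67, Prkg1 by 0.53 ± 0.64, Pde5a by 0.58 ± 0.42 and Pde2a by 0.86 ± 0.70 log2. Relative to the pericyte markers, Irag1 differed by -0.00 ± 0.31, Gucy1a1 by 0.13 ± 0.38, Gucy1b1 by 0.29 ± 0.25 and Pde3a by 0.26 ± 0.50. Relative to the endothelial markers, whose mean hardly differed, the values were -0.81 ± 0.61 for Irag1, -0.68 ± 0.64 for Gucy1a1 and -0.54 ± 0.38 for Pde3a.

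**Figure D5:**
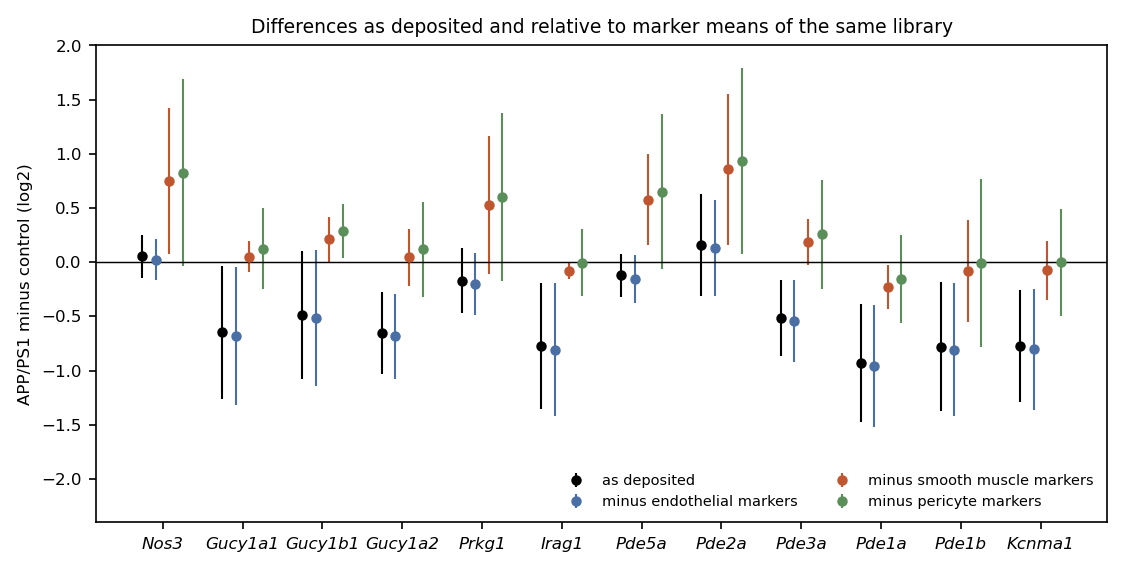
Mean of the 5 pair differences with its SD (y axis, APP/PS1 minus control, log2) for the 9 members and 3 other pathway genes, as deposited (black) and after the mean of the endothelial (blue), smooth muscle (orange) or pericyte (green) markers of the same library was subtracted. Relative to smooth muscle markers Irag1 stands at -0.08 and Gucy1a1 at 0.05, while Nos3 stands at 0.75. Each marker list shifts the means of all the genes by the same amount.

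The genes whose 5 pair differences lay nearest to those of a member were sought among 13119 genes with a mean of at least 0 log2 CPM, by the root mean square distance over the 5 pairs. For Irag1 they were Rgs4 at 0.08, Myh11 at 0.08, Rasl12 at 0.09, Ednra at 0.09 and Cacna2d1 at 0.11 log2 units. Myh11, the smooth muscle myosin heavy chain, is one of the smooth muscle markers. For Gucy1a1 they were Gfra2 at 0.05, Itga7 at 0.08, Inpp4b at 0.11, Ednra at 0.13 and Slc19a1 at 0.15. Ednra, which encodes endothelin receptor A, stood near both. The pattern of Pde1b was less closely matched, by Rnf157 at 0.17, Dock10 at 0.26, Cyp2e1 at 0.27, Smpd3 at 0.29 and Pdzd4 at 0.29. In its order of 13119 genes, the smooth muscle markers Acta2 and Myh11 were 25th and 128th. The pericyte markers Pdgfrb and Rgs5 were 505th and 703rd.

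Leaving out the pairing changed which genes were called. In limma without pairs, 3 of the 42 other pathway genes passed an adjusted p of 0.05 in the lower direction, beside 3.23% of all genes, and 0 in the higher, beside 1.37%. They were Gucy1a2, Pde1a and Kcnma1, with adjusted p of 0.0173, 0.0179 and 0.0267. Over the 9 other settings the adjusted p of these 3 genes lay between 0.206 and 0.929. That fit has 8 residual degrees of freedom in place of 4, although the pair means are nearly equal in the deposited values. It treats libraries that mirror each other as independent, which makes the error of the group difference too small. Its p-values are therefore too low, and nothing is read from these calls.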

How the data were processed

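BEC libraries, 5 of APP/PS1 and 5 of control mice, were compared, with groups, replicate numbers and 4 batches taken from the labels. The authors aligned reads to mm10 with STAR, counted them with HTSeq-count, filtered with filterByExpr, took log2 CPM with edgeR, corrected batches with ComBat, by their methods in that order, and deposited log2 values of 14106 genes (versions are not given in the sources used here). All values converted back to whole adjusted counts within 0.02. A ComBat shift of log2 CPM would not in general leave whole counts, so the stated order and the values differ, and which correction was applied is not settled here. Counting error was not computed from such adjusted counts. Deviations of the 2 libraries of a pair were mirror images (rank correlations -0.999 to -0.989 over 10873 genes), although the labels put replicates 4 and 5 of both groups in 1 batch. The cause was not tested. Where nothing says that libraries came from separate mice, p-values measure the spread between libraries.

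R 4.3.3 and limma 3.58.1 (lmFit, eBayes) were run with genotype and 5 replicate pairs as terms, after tests on simulated data, with Benjamini-Hochberg adjustment over all genes. Symbols, exon lengths and positions came from GENCODE M21 (GRCm38, also called mm10). The members, lists and marker genes were chosen with earlier results of these data known. Named genes were all members, 21 pathway genes listed by role, up to 3 more in each direction with the largest difference of 1 sign in all pairs, and the 5 genes nearest to each of 3 members. Alternatives were no pairs, 4 batches, a trend in eBayes, a mean of at least 1 log2 CPM, a prior count of 0.125, equal library medians, each replicate left out, and, added later, levels relative to markers.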

Additional observations from a re-analysis of the deposited data

Results flagged for a closer look

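Of 60 groups of 5 libraries of the members and the 21 other pathway genes named by role (chance marks about 1 in 20), 3 held a library whose gap to the next was over 0.71 of the range of its group. All 3 were replicate 2. Pde5a stood at 5.22 log2 CPM in control replicate 2, against 5.42 to 5.49 in the other controls. Pde1b stood at -0.37 in control replicate 2, against 0.25 to 0.31 in the others, and at -0.0942 in APP/PS1 replicate 2, against -0.79 to -0.68. The last 2 values are of 1 pair, whose libraries mirror each other, so they are not independent. The cause of the mirroring was not tested.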

How the results depend on the processing

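Across 63 values of members under other settings, 1 changed sign (Pde2a, -0.02 without replicate 3) and 0 moved by over 1 SD of the pair differences. Leaving out 1 of 5 pairs cannot move a mean by that much, so this count says nothing about those settings. The median difference of the members and that of Gucy1b1, both -0.49 log2, were -0.30 without replicate 1, and the difference of Pde5a, -0.12, was -0.21 without replicate 2 and -0.08 without replicate 4. Prkg1, at -0.17, was -0.07 without replicate 2 and -0.27 without replicate 3. Nos3, at 0.06, was 0.14 without replicate 2 and 0.01 without replicate 4, and Pde2a, at 0.16, was 0.28 without replicate 4. The count of genes past an adjusted p of 0.05, 0 in the paired limma fit, was 648 in the fit with no replicate block, 1 with the 4 batches of the labels (Sox10), and 0 to 5 with each replicate left out. The 5 genes were called without replicate 2, and without replicate 5 it was 1 gene, Prg2. The count of other pathway genes at an unadjusted p under 0.05, which was 4, became 12 with no replicate block. Of these 12, 11 were lower. It was 3 to 7 with each replicate left out. The 7 came without replicate 2, and 5 of them were lower. The shares of all genes at that p are not given for these settings, so nothing about the pathway is read from these counts. When scarce genes, below 1 log2 CPM on average, were dropped, 32 other pathway genes were left and 0 were counted. All 4 genes counted before were themselves dropped, with means of -0.86 to 0.52 log2 CPM, so this 0 says nothing about them. The median difference of the members, -0.49 log2, was 0.29 relative to pericyte markers and 0.21 relative to smooth muscle markers. Of the 18 values of members in those 2 settings, chosen after seeing the data, 10 changed sign and 18 moved by over 1 SD. These counts follow from the shift that each marker list gives to all members alike. The number of members lower in all remaining pairs was 2 without replicate 1, 4 or 5, where 6.95%, 8.41% and 7.57% of all genes were, 3 without replicate 3 (6.83%), and 5 without replicate 2 (13.3%). The pairing took 4 of the 8 residual degrees of freedom. The deposited values hold no read depth before correction, and Pde1b, Pde1a, Kcnma1, Kcnmb1, Cygb and Gucy1a2 rest on 8 to 19 adjusted counts in their lowest library.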
